A study of Mus musculus with 18 samples.

Results

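Ribosome biogenesis genes encode the proteins that transcribe, modify, cut and fold ribosomal RNA and assemble it with ribosomal proteins into subunits. A set of 38 such genes, each represented here by its mRNA, was followed through lung organoids and tumoroids of the mouse. The members were chosen by symbol, all 38 were found among the 46603 genes of every deposited table, and all 38 passed the filter on low counts in every comparison. By role they comprised 3 subunits of RNA polymerase I, 5 nucleolar scaffold proteins and regulators, 3 core proteins of box C/D small nucleolar ribonucleoproteins (snoRNPs), 4 core proteins of box H/ACA snoRNPs, 13 factors of the small ribosomal subunit and 10 factors of the large subunit. Values are given as CPM (counts per 1000000), scaled for library composition across all 18 samples, and as a member score, which is the mean log2 CPM of the 38 genes in a sample.

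RNA polymerase I transcribes the long precursor of ribosomal RNA in the nucleolus. Box C/D snoRNPs then guide methylation of that precursor and box H/ACA snoRNPs its pseudouridylation, while separate sets of processing factors cut and fold it into the small and the large subunit. The pathway is among the most expensive activities of a growing cell, its genes are classical targets of Myc, and the size and number of nucleoli have long been read by pathologists as a sign of growth in tumors.

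The study asked how the cell of origin shapes lung tumors driven by a human EGFR transgene carrying T790M and L858R. Epithelial cells were sorted from the trachea as basal (NGFR positive) or club (NGFR negative) cells and from the distal lung as bronchioalveolar stem cells (BASC, Sca1 positive) or type 2 alveolar cells (AT2, Sca1 negative), and were grown in 3D as 10 organoid cultures. The 8 tumoroids were 3D cultures of tumor cells, of which 7 came from Ad-Cre organoids placed in the trachea of immunocompromised mice and 1, the autochthonous tumoroid, from transformation within the lung of the donor animal. All of the mice that gave epithelium carried the transgene silent behind a lox-stop-lox cassette at Col1a1, so the Ad-GFP cultures held it unexpressed and the Ad-Cre cultures were treated to switch it on from the CAG promoter. The human transcript was not analysed here, so recombination was not checked in these data. The paper reports an RT-PCR in which Cre virus induced this transcript in tracheal cells to a similar degree as in distal cells.

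Club, basal, AT2 and mixed BASC organoids were each sequenced once with Ad-GFP and once with Ad-Cre. Sorted cells of each population were divided between the viruses, so the paired cultures shared their starting cells. Comparisons between populations treated such paired cultures as replicates. BASC organoids that had been picked by shape as alveolar or bronchiolar were sequenced once each, with Ad-Cre only. The transplant tumoroids were 3 of AT2, 3 of mixed BASC and 1 of bronchiolar BASC origin, and the ages of the mice are not given in the labels. Organoids shared their gel with mesenchymal and endothelial support cells of the lung, which also contribute RNA. Dissociated tumor cells were likewise plated with mesenchymal support cells, and the nude hosts of the transplants still had stromal and innate immune cells. The AT2 tumoroids also carry the sorting label NGFR negative, which belongs to club cells elsewhere in the labels, and were grouped by their stated origin. Some tumoroid titles share a number, and whether that marks 1 mouse is not stated. No organoid condition was repeated and no source says that the tumoroids of 1 origin were grown from separate animals, so p-values measure only the spread between these samples.

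Total counts were 27772660 to 97191624 per organoid culture and 15327265 to 23355938 per tumoroid, so counting error was larger in the tumoroids. No pair of samples held identical values. AT2 markers (Sftpc, Sftpb, Sftpa1, Lamp3, Abca3 and Slc34a2) summed to between 42960 and 50410 CPM in the 3 alveolar organoid cultures, to between 156 and 2376 CPM in the 5 airway cultures and to between 677 and 2525 CPM in the 2 mixed BASC cultures. The AT2 sum was 16700 to 90260 CPM in the 6 tumoroids of AT2 or mixed BASC origin, which are called alveolar below, and 6404 CPM in the bronchiolar tumoroid, whose club markers reached 4989 CPM against 59.2 to 1206 CPM in the other 6 transplant tumoroids. Basal markers stood at 3942 and 3854 CPM in the club cultures against 3595 and 3113 CPM in the basal cultures, so the markers did not separate these groups. Endothelial markers summed to no more than 1.118 CPM in any organoid culture, so the markers of the endothelial support cells were near 0.

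The 250 bases before the transcription start are shown for 4 members. Gar1 had the largest fold change of the members called higher in airway than in alveolar organoids, Polr1c was the member that moved the other way, Nop58 is the marker of the set, and Nop2 was the only member to hold both searched motifs within these bases. The motifs were CACGTG, the E-box bound by Myc and related factors, and CCGGAAG, the core bound by ETS factors, each searched on both strands, and neither contains the other. Sequences are from RefSeq on GRCm38.p6, written 5′ to 3′ on the strand of the gene, and capitals mark a motif. Gar1 lies on the minus strand with its window at chr3:129831397-129831646, Polr1c on the minus strand at chr17:46248046-46248295, Nop58 on the plus strand at chr1:59684756-59685005 and Nop2 on the plus strand at chr6:125131633-125131882.
Gar1: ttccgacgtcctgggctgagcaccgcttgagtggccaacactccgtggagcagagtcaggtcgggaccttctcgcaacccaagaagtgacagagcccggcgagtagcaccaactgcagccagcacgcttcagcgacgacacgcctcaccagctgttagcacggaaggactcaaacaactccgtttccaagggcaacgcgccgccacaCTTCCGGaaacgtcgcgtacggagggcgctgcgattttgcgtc
Polr1c: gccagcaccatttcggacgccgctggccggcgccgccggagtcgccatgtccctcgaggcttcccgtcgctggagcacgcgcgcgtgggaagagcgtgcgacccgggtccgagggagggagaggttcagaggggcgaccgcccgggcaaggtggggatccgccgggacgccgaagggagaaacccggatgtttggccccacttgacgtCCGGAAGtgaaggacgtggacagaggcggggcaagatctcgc
Nop58: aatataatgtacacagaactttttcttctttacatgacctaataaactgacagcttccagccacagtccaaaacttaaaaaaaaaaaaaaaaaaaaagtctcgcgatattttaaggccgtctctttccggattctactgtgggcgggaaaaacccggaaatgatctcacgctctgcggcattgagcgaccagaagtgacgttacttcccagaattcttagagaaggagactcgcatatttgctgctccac
Nop2: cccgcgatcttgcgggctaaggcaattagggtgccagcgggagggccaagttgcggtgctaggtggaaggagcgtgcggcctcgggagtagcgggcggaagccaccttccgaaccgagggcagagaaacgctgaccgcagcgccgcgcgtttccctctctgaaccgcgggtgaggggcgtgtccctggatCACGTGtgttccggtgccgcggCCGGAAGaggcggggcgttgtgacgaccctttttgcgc
Gar1 and Polr1c each held 1 ETS core, 43 and 42 bases before the start, although their mRNA levels went in opposite directions. Nop58 held neither motif in these letters. Of the 38 members, 33 had a promoter entry in RefSeq. Within the 250 bases before the start, the ETS core was present in 8 of the 33 members (24.2%), against 7.83% of 27025 genes, and in 36.3% of 102 other ribosome biogenesis genes. The E-box was present before the start in 1 member (3.03%), against 6.86% of all genes. When the window was extended to 300 bases, into the first transcribed bases, the E-box was found in 8 members (24.2%), against 8.09% of all genes. A match describes the letters and is no evidence of binding.

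Per unit of transcript length, Npm1, which encodes the abundant nucleolar chaperone nucleophosmin, was the highest member, with a median of 693 TPM (RSEM's transcript level per length and per 1000000 transcripts) over the 18 samples. Ncl, which encodes nucleolin, followed with 227 TPM, then Nop58 with 118 TPM, Polr1c with 115 TPM and Mybbp1a, a nucleolar regulator, with 98.8 TPM. The lowest medians were those of the small-subunit factors Utp20 at 7.58 TPM and Rrp12 at 5.46 TPM. Nop58 ranged over the samples from 59.2 to 161 TPM and Polr1c from 43.4 to 231 TPM, so the ranges of these neighbours in the order overlapped.

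In organoids the members separated the alveolar cultures from all others. The member score was 4.86 in AT2 Ad-GFP, 4.73 in AT2 Ad-Cre and 4.77 in BASC alveolar organoids. It lay between 5.17 and 5.41 in the 5 airway cultures, and stood at 5.27 in mixed BASC Ad-GFP and 5.30 in mixed BASC Ad-Cre organoids. The 3 alveolar cultures were therefore below each of the other 7. All 7 transplant tumoroids were above them as well, at 5.37 to 5.60, and the autochthonous tumoroid was at 5.25.

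**Figure D1:**
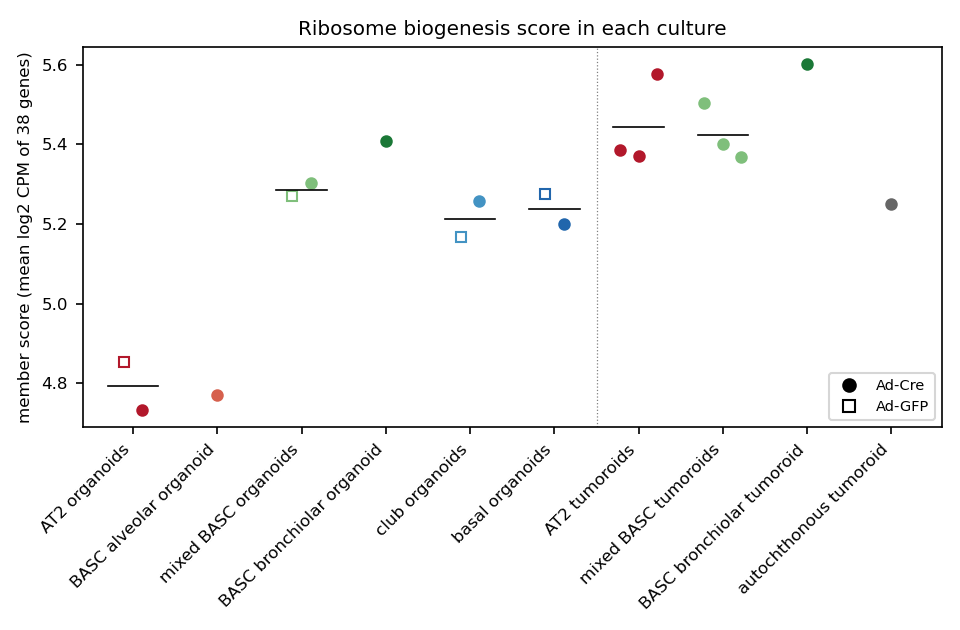
Member score (mean log2 CPM of the 38 genes, vertical axis) in each of the 18 samples, grouped by population of origin. The 3 alveolar organoid cultures sit between 4.73 and 4.86, and the other 7 organoid cultures and 7 transplant tumoroids between 5.17 and 5.60.

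The first comparison asked whether organoids of 2 distal stem cells, BASC and AT2, differed in these genes. Nop58, which encodes a scaffold of box C/D snoRNPs, was measured at 81.7, 74.1, 44.4 and 85.5 CPM in BASC mixed Ad-GFP, mixed Ad-Cre, alveolar and bronchiolar organoids, and at 40.3 and 34.7 CPM in AT2 Ad-GFP and Ad-Cre organoids. Every BASC culture lay above both AT2 cultures, and the alveolar one was nearest to them. Gar1, which encodes a core protein of H/ACA snoRNPs, was at 17.4, 17.3, 6.642 and 19.96 CPM in the same order of BASC cultures and at 6.680 and 6.263 CPM in AT2. The alveolar BASC culture lay between the pair of AT2 cultures, while the other 3 were well above. When these 6 samples were scaled by themselves, it lay just above both.

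With all 4 BASC cultures against 2 AT2 cultures, edgeR called 0 of 18866 genes at an adjusted p under 0.05, or 0% in either direction, although 3565 genes had an unadjusted p under that value. DESeq2 called 1450 genes (7.69%) higher and 416 (2.21%) lower in BASC, and 0 members. Of the members, 35 were above 0 and 3 below (Polr1c, Heatr1 and Nat10), with a median log2 fold change of 0.42 against 0.03 over all genes tested, and 6 had an unadjusted p under 0.05. On the scaling of the compared samples alone, which is used for all counts of this kind, the values of 13 members were higher in every BASC culture than in every AT2 culture, against 19.2% of all genes, and 0 members were lower in every culture, against 16.9%.

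The log2 fold change of Nop58 was 0.90 ± 0.279 (SE; edgeR, adjusted p = 0.26), that of Gar1 1.21 ± 0.454 (adjusted p = 0.261) and that of Dkc1, the pseudouridine synthase of the H/ACA particle, 0.64 ± 0.249 (adjusted p = 0.261). Fbl, the methyltransferase of the C/D particle, differed by 0.51, Polr1b by 0.41, Npm1 by 0.40, Ncl by 0.37 and Polr1a by 0.08 on the log2 scale, and none of these passed the test. The 4 BASC cultures spread further apart from each other than the AT2 cultures did.

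The alveolar BASC culture decided this result. Without it, edgeR called 20 members higher in BASC and 1 lower, where 15.2% of all genes were called higher and 18.1% lower, and the members' median log2 fold change was 0.53. Nop58 was then 1.06 ± 0.128 higher (SE; edgeR, adjusted p = 0.00557) and Gar1 1.45 ± 0.163 higher (edgeR, adjusted p = 0.00471), while Polr1c, a subunit that RNA polymerases I and III share, was at -1.32 ± 0.144 (edgeR, adjusted p = 0.00446). With the mixed BASC cultures alone against AT2 and the virus as a covariate, 6 members were higher (Nop56, Nop58, Gar1, Nhp2, Ebna1bp2 and Rrp1b) and Polr1c was lower, where 10.7% of all genes were called higher and 11.0% lower.

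In the comparison of airway with alveolar organoids, 27 of the 38 members were higher in the 5 airway cultures, 1 was lower and 10 were not called. The airway group held club and basal cultures with either virus and the bronchiolar BASC culture, and the alveolar group held both AT2 cultures and the alveolar BASC culture. The club, basal and AT2 pairs each came from the same sorted cells and entered the fit as separate samples. The p-values therefore do not measure the spread between independent cell preparations. Of 18362 genes tested, edgeR called 30.5% higher and 27.9% lower at an adjusted p under 0.05. The members' median log2 fold change was 0.48 against 0.06 over all genes, and 36 of 38 were above 0. The values of 28 members lay higher in every airway culture than in every alveolar culture, against 27.3% of all genes, and 1 lay lower in every culture, against 27.2%. DESeq2 called 26 members higher and 1 lower, where it called 30.2% of all genes higher and 29.7% lower.

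RNA polymerase I was split. Polr1c was at 27.6, 30.2, 26.1, 27.2 and 27.2 CPM in club Ad-GFP, club Ad-Cre, basal Ad-GFP, basal Ad-Cre and BASC bronchiolar organoids. In AT2 Ad-GFP, AT2 Ad-Cre and BASC alveolar organoids the same gene was at 76.5, 77.0 and 78.8 CPM. The 3 alveolar values were close together and well above the highest airway value, and the log2 fold change was -1.53 ± 0.0692 (SE; edgeR, adjusted p = 4.48e-06), 2.89-fold lower in airway. Polr1b, which encodes a large catalytic-core subunit, went the other way, at 18.9 to 21.2 CPM in airway and 10.8 to 12.9 CPM in alveolar organoids, a log2 fold change of 0.68 ± 0.0983 (edgeR, adjusted p = 0.00059). Polr1a, the largest subunit, was at 33.8 to 39.95 CPM in airway and 25.1 to 31.6 CPM in alveolar organoids, and differed by 0.30 ± 0.0963 (edgeR, adjusted p = 0.0266).

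Of the nucleolar scaffold proteins and regulators, 3 of 5 were higher in airway organoids. Mybbp1a stood at 148 to 168 CPM against 83.4 to 99.2 CPM, Nolc1, a chaperone of snoRNPs, at 52.1 to 64.1 CPM against 39.1 to 41.4 CPM, and Ncl at 392 to 540 CPM against 339 to 366 CPM. Their log2 fold changes were 0.72, 0.47 and 0.36, and the adjusted p of Ncl was 0.0243 in edgeR. Npm1, at 358 to 519 CPM in airway and 303 to 353 CPM in alveolar organoids, had a log2 fold change of 0.33 ± 0.129 and did not pass the test (edgeR, adjusted p = 0.0527). Gnl3, which encodes the nucleolar GTPase nucleostemin, had an adjusted p of 0.0504 in edgeR.

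All 3 box C/D core genes were higher in airway organoids. Nop58 was at 71.0, 79.9, 81.7, 73.0 and 85.5 CPM in the airway cultures, in the order given for Polr1c, and at 40.3, 34.7 and 44.4 CPM in the alveolar cultures. The groups did not overlap, with means of 78.2 ± 6.09 CPM (SD, n = 5) and 39.8 ± 4.87 CPM (SD, n = 3) and a log2 fold change of 0.93 ± 0.103 (SE; edgeR, adjusted p = 0.000152). Fbl was at 43.7 ± 2.5 CPM against 26.9 ± 2.58 CPM and Nop56, the partner scaffold of Nop58, at 76.6 ± 14.2 CPM against 47.6 ± 2.21 CPM (SD, n = 5 and 3), with log2 fold changes of 0.65 and 0.64.

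Of the H/ACA core genes, 3 of 4 were higher. Gar1 had the largest fold change of all members called higher. It was at 13.7, 15.5, 14.7, 15.5 and 19.96 CPM in the airway cultures and at 6.680, 6.263 and 6.642 CPM in the alveolar cultures, a log2 fold change of 1.24 ± 0.138 (SE; edgeR, adjusted p = 0.000158), or 2.35-fold. Nhp2 stood at 30.3 to 40.1 CPM against 18.9 to 22.0 CPM, a log2 fold change of 0.78 ± 0.117 (edgeR, adjusted p = 0.000715). Dkc1 was at 18.9 to 20.2 CPM in 4 airway cultures and at 29.4 CPM in BASC bronchiolar organoids, against 13.7 to 16.2 CPM in alveolar organoids, and differed by 0.52 ± 0.162 (edgeR, adjusted p = 0.0232). Nop10, the smallest protein of the particle, overlapped between groups and had a log2 fold change of 0.10.

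**Figure D2:**
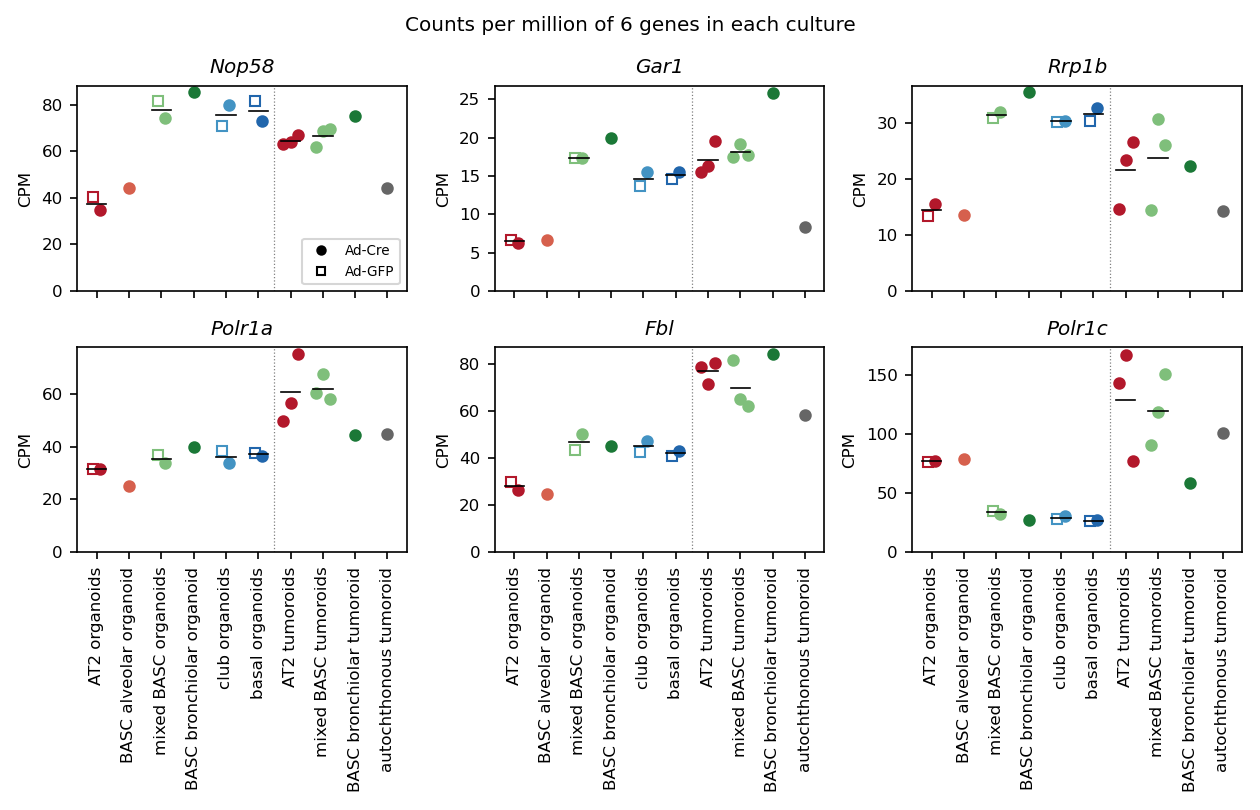
CPM of Nop58, Gar1, Rrp1b, Polr1a, Fbl and Polr1c in each sample by group (vertical axes, linear), with circles for Ad-Cre cultures and tumoroids, open squares for Ad-GFP cultures and bars for group means. In alveolar organoids Nop58, Gar1 and Rrp1b are below every airway culture, and Polr1c, at 76.5 to 78.8 CPM, is above every airway culture.

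All 10 large-subunit factors were higher in airway organoids, with a median log2 fold change of 0.515, and none of them overlapped between groups. Rrp1b, a nucleolar protein of the early large-subunit particle, was at 30.1, 30.3, 30.3, 32.6 and 35.4 CPM in the airway cultures and at 13.3, 15.6 and 13.6 CPM in the alveolar cultures. Its log2 fold change was 1.12 ± 0.0917 (SE; edgeR, adjusted p = 3.82e-05). Bop1, Pes1 and Wdr12, which form the PeBoW complex, had smaller log2 fold changes of 0.36, 0.18 and 0.50. Of the 13 small-subunit factors, 6 were higher (Rrp9, Nop14, Wdr43, Dimt1, Rrp12 and Nob1), 7 were not called and the median log2 fold change was 0.38, with a range of -0.16 for Heatr1 to 0.65 for Rrp12.

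Of the 28 member calls, 22 held whichever of the 8 cultures was left out. When a club, basal or AT2 culture was left out, its partner from the same sorted cells stayed in the fit. Exons of Dimt1 shared 31.9% of their bases with Kif2a on the opposite strand, and the sources do not say whether counting used strand, so its value is uncertain. The calls for Ncl, Dkc1, Polr1a, Dimt1, Pes1 and Wdr74 were each lost without at least 1 culture, either AT2 culture for Dkc1, either AT2 culture or club Ad-Cre for Ncl, and BASC alveolar or basal Ad-GFP for Polr1a, with adjusted p values in edgeR of up to 0.084, 0.0909 and 0.0891. The call for Polr1a was also lost with no filter on low counts (0.299, edgeR adjusted p = 0.062), with a correction for GC content (0.23, edgeR adjusted p = 0.0967) and for tracheal against AT2 cultures alone (0.164, edgeR adjusted p = 0.103). Without club Ad-GFP, Npm1 was called (edgeR, adjusted p = 0.0246).

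**Figure D3:**
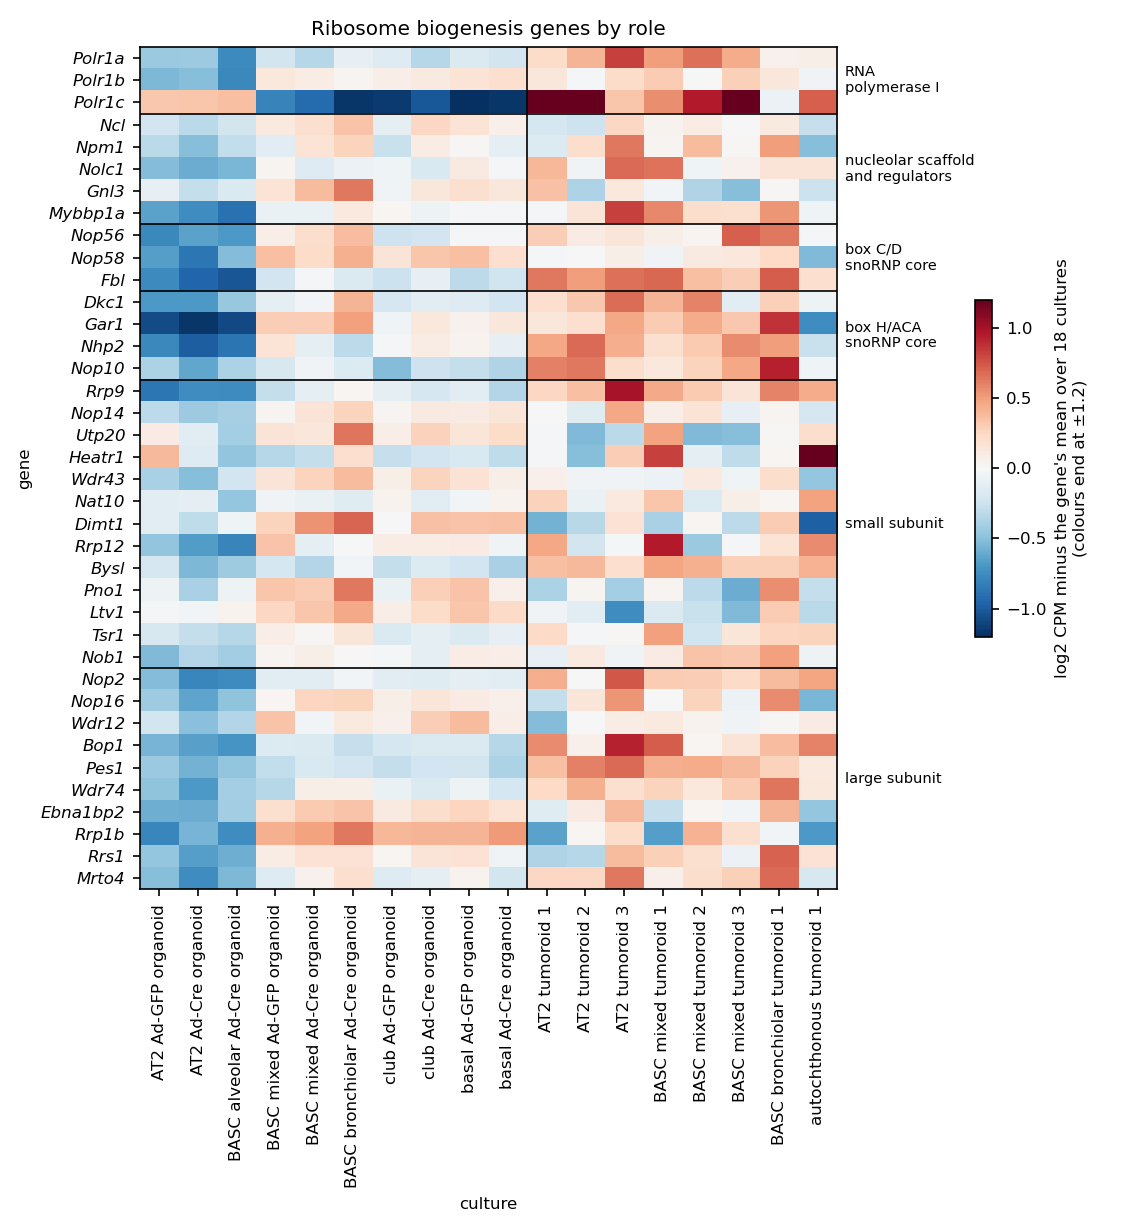
Log2 CPM of the 38 members (rows, by role) in the 18 samples (columns), each row shown as the difference from its mean over all samples, with colors ending at 1.2 log2 units in either direction. The 3 alveolar organoid columns are low for most rows, and Polr1c is high in them and in most tumoroids.

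Other genes of the pathway, which were not members, mostly went the same way in the same cultures. Their list was also made with earlier results of these data known, so they are no independent check. Of 119 further biogenesis genes, 82 were higher in airway organoids and 4 lower (Rcl1, Exosc7, Wdr36 and Tsr2), with a median log2 fold change of 0.44. Of all genes tested, 30.5% were called higher and 27.9% lower, with a median of 0.06. The largest changes were those of Ruvbl2 (1.60) and Ruvbl1 (1.55), ATPases that help to assemble snoRNPs, Mphosph6 (1.57), a partner of the RNA exosome, Las1l (1.49), an endonuclease of the large-subunit pathway, and Taf1a (1.42), a part of the initiation factor of RNA polymerase I. Rcl1 (-1.004), an endonuclease of the small-subunit pathway, and Exosc7 (-1.18), an exosome subunit, went the other way. Of 79 cytosolic ribosomal protein genes, 10 were higher and 7 lower, with a median of 0.10, and the largest changes were those of Rpl21 (-0.89) and Rpl29 (-0.86).

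Several other measures moved with the division between airway and alveolar organoids, where 30.5% of all genes were called higher and 27.9% lower. Of 12 proliferation genes, 9 were higher in airway organoids, with Top2a at 1.11 and Mcm2 at 0.76 on the log2 scale, and the proliferation score, a mean log2 CPM, was 4.69 to 5.20 in airway and 4.16 to 4.60 in alveolar organoids. Myc was at 52.8 to 85.7 CPM in airway and 14.6 to 17.9 CPM in alveolar organoids. Of 10 fibroblast and smooth muscle markers, 9 were lower in airway organoids, Thy1 by -3.21 and Postn by -2.61 on the log2 scale, and the whole list summed to 2232 to 3596 CPM against 5258 to 9034 CPM. Of 6 AT2 markers, 5 were lower in airway, with Sftpc at -9.67 on the log2 scale, while 3 of 4 club, 4 of 4 basal and 3 of 3 ciliated cell markers were higher. Of the immune markers tested, 2 were higher and 3 lower, among them Lyz2 (-5.61), which AT2 cells also express, and 1 of 2 endothelial markers tested was lower. The part of these differences in the members' levels was not tested, and in bulk samples fewer cells of a type cannot be told apart from less RNA per cell. In mixed BASC Ad-Cre organoids the fibroblast list reached 5003 CPM, near the 5258 CPM of BASC alveolar organoids, and the member score there was 5.30 against 4.77. These single cultures also differed in Myc, at 70.2 against 17.6 CPM, and in AT2 markers, at 2525 against 46230 CPM, so the pair isolates none of these measures.

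Next, the virus was compared within each population, to ask whether the mutant EGFR itself moved these genes in culture. With 4 Ad-Cre against 4 matched Ad-GFP cultures and population as a block, edgeR called 0 of 19178 genes (0% in either direction), 396 genes had an unadjusted p under 0.05, and DESeq2 called 3 genes higher and 2 lower. The members had a median log2 fold change of -0.01, 18 above 0 and 20 below, and 0 had an unadjusted p under 0.05. Nop58 went from 71.0 to 79.9 CPM in club, from 81.7 to 73.0 in basal, from 40.3 to 34.7 in AT2 and from 81.7 to 74.1 in mixed BASC organoids, with the Ad-GFP culture given first. The direction differed between the populations, and the fitted log2 difference was -0.10 ± 0.0857 (SE; edgeR, adjusted p = 0.996). Fbl (0.05), Ncl (0.05), Npm1 (0.07), Dkc1 (0.01), Polr1b (0.01) and Polr1a (-0.10) had log2 differences of at most 0.10 in size.

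The tumoroids were then compared with the 4 distal Ad-Cre organoid cultures, from which such transplants were made. Of 16139 genes, edgeR called 10.8% higher and 8.77% lower in the 7 transplant tumoroids. Among the members, 12 were higher and 0 lower, 32 were above 0, and the median log2 fold change was 0.42 against -0.00164 over all genes. The values of 11 members were higher in every tumoroid than in every organoid culture, against 8.71% of all genes, and 0 were lower in every tumoroid, against 6.91%. DESeq2 called 16 members higher and 0 lower, where it called 15.9% of all genes higher and 12.8% lower.

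Fbl changed most among the members called. It was at 26.2, 50.0, 24.8 and 45.1 CPM in AT2, mixed, alveolar and bronchiolar BASC organoids, and at 62.2 to 84.1 CPM with a median of 78.5 CPM in the tumoroids. All tumoroids were above all 4 organoids, by 1.08 ± 0.201 on the log2 scale (SE; edgeR, adjusted p = 0.0049). Nhp2 was at 18.9, 34.7, 20.5 and 30.3 CPM in the same organoids and at 42.9, 52.0 and 60.2 CPM (lowest, median and highest) in the tumoroids, higher by 1.04 ± 0.181 (edgeR, adjusted p = 0.0038).

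Polr1a rose from 31.6, 33.7, 25.1 and 39.95 CPM in the organoids to 44.4, 58.3 and 75.4 CPM (lowest, median and highest) in the tumoroids, by 0.90 ± 0.171 on the log2 scale (edgeR, adjusted p = 0.00541). Bop1 and Pes1 of the PeBoW complex rose by 0.92 ± 0.204 (edgeR, adjusted p = 0.0105) and by 0.86 ± 0.122 (edgeR, adjusted p = 0.00151). Pes1 was at 61.3 to 79.8 CPM in the organoids and at 110 to 146 CPM in the tumoroids. The other members called higher were Nolc1, Mybbp1a, Nop10, Rrp9, Bysl, Nop2 and Wdr74, with log2 fold changes of 0.57 to 0.88, and of these Mybbp1a overlapped between the groups. Bysl shares 9.37% of its exon bases with Ccnd3 on the opposite strand, so its value is less certain.

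Of the 4 members called higher by the largest fold change in airway organoids (Gar1, Rrp1b, Nop58 and Nhp2), Nhp2 alone was called higher in tumoroids. Nop58 was at 61.8, 66.8 and 75.2 CPM (lowest, median and highest) in the tumoroids. All of them lay above the alveolar cultures at 34.7 and 44.4 CPM and below the bronchiolar culture at 85.5 CPM, and the highest lay just above the mixed culture at 74.1 CPM. The log2 difference of Nop58 was 0.22 ± 0.209 (edgeR, adjusted p = 0.502), and with the GC correction described below it was 0.635 ± 0.199 (edgeR, adjusted p = 0.0575). Gar1 (0.63, adjusted p = 0.19 in edgeR) and Rrp1b (-0.05, adjusted p = 0.936) were likewise not called. Ncl differed by 0.03, Npm1 by 0.36, Dkc1 by 0.53 and Polr1b by 0.45 on the log2 scale, and none passed the test. Polr1c, at 27.2 to 78.8 CPM in the organoids and 58.2 to 166 CPM in the tumoroids, differed by 1.13 ± 0.394 (edgeR, adjusted p = 0.066) and was called by DESeq2 (adjusted p = 0.0162).

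**Figure D4:**
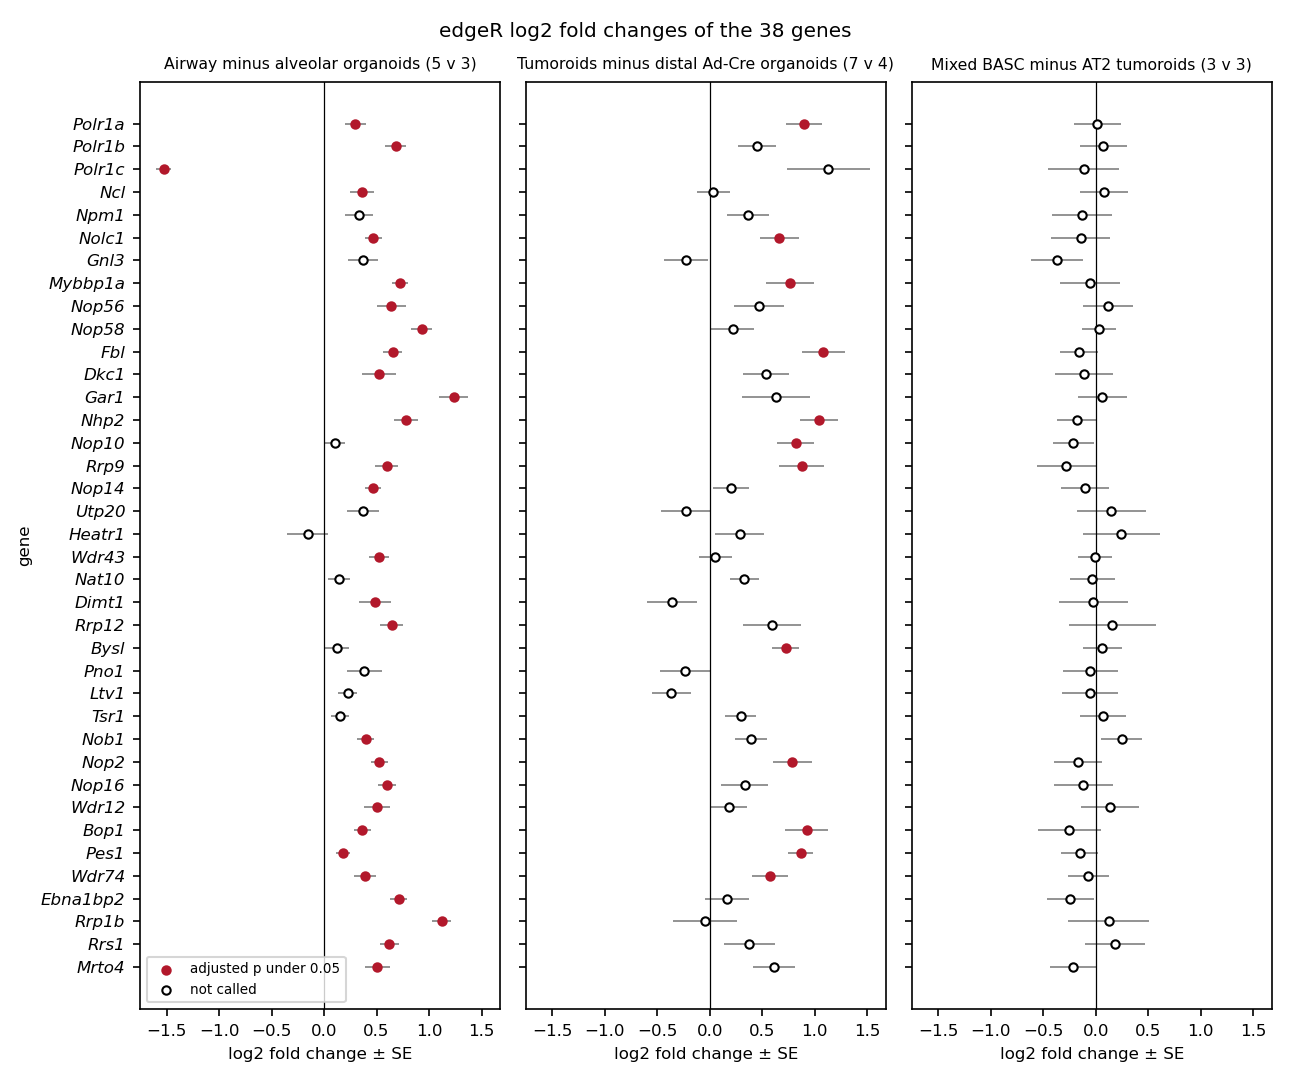
Log2 fold change with SE (horizontal axes) of each member (rows, by role) in 3 comparisons: airway minus alveolar organoids, transplant tumoroids minus distal Ad-Cre organoids, and mixed BASC minus AT2 tumoroids. Filled points were called by edgeR: 28 in the first comparison, 12 in the next and 0 in the last.

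Because the distal organoids held alveolar and non-alveolar cultures that differed in the members, the comparison was repeated in 2 subsets of samples, a choice made after seeing the data. The 6 alveolar tumoroids against the 2 alveolar Ad-Cre organoid cultures gave 17 members higher and 0 lower, where 5.19% of all genes were higher and 3.97% lower, with a members' median of 0.735. Nop58 was then higher by 0.76 ± 0.151 (SE; edgeR, adjusted p = 0.0214) and Gar1 by 1.48 ± 0.205 (edgeR, adjusted p = 0.00683). The mixed and bronchiolar BASC tumoroids against mixed and bronchiolar BASC Ad-Cre organoids gave 0 members called by edgeR, where 1.61% of all genes were called higher and 2.43% lower and 4968 genes had an unadjusted p under 0.05. There the members' median was 0.15, and Nop58 was at -0.19 ± 0.153 on the log2 scale (edgeR, adjusted p = 0.422). The mixed BASC tumoroids of this contrast were also among the 6 alveolar tumoroids. Their AT2 markers summed to 21020 to 37590 CPM, against 2525 CPM in mixed BASC Ad-Cre organoids, so the sides were not matched in these markers. DESeq2 was not run on these samples, and the difference between the 2 contrasts was not tested.

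Organoid libraries were made by TruSeq and read on HiSeq, and tumoroid libraries were made by the BGI protocol and read on its own platform, so platform and transplantation cannot be told apart. The log2 difference between tumoroids and organoids rose with the GC content of the gene. Over 5 equal bins of all genes from low to high GC its median was -0.39, -0.16, 0.01, 0.20 and 0.39, and that of the members was 0.12, 0.12, 0.46, 0.63 and 0.92 with 8, 6, 8, 13 and 3 members. In every bin the members' median was above that of all genes. Between airway and alveolar organoids, all sequenced by TruSeq, the medians of all genes lay between -0.015 and 0.0929 with no such slope.

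**Figure D5:**
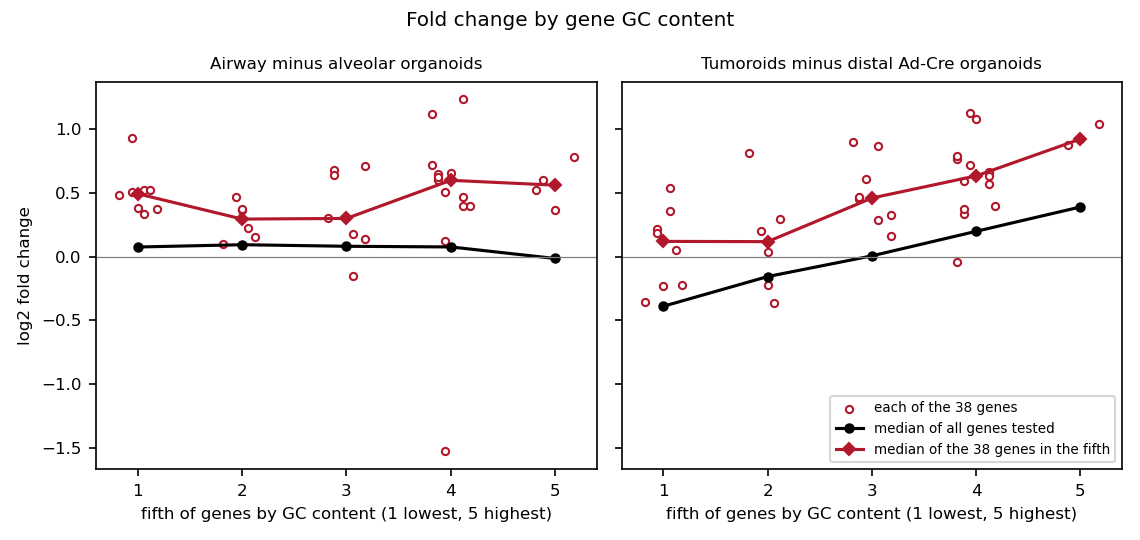
Median log2 difference (vertical axes) of all genes and of the members, with single members as points, over 5 equal bins of GC content (horizontal axes), for airway minus alveolar organoids and for tumoroids minus distal Ad-Cre organoids. The line of all genes climbs from -0.39 to 0.39 in the tumoroid comparison and is nearly level in the organoid comparison.

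With a GC correction, 8 members were higher in tumoroids and 0 lower, where 9.03% of all genes were called higher and 3.80% lower, and the members' median was 0.525 against 0.0824 over all genes. Of all calls, 70.4% were then higher in tumoroids, against 55.3% without the correction. Of the 12 member calls, 6 held (Polr1a, Fbl, Nhp2, Nop10, Bysl and Pes1), and Npm1 (0.89, adjusted p = 0.0122 in edgeR) and Dkc1 (0.85, adjusted p = 0.0211) were added. Within alveolar samples alone the correction gave 17 members higher, where 4.37% of all genes were called higher and 2.16% lower, with a members' median of 0.82. With population of origin as a block, 5 members were called higher (Fbl, Nhp2, Nop10, Bysl and Pes1) and 0 lower, where 3.31% of all genes were called higher and 3.40% lower. Without any correction, 8 of the 12 calls held whichever of the 11 samples was left out, and Nolc1, Mybbp1a, Rrp9 and Wdr74 were lost without at least 1 sample, among them the AT2 Ad-Cre and BASC alveolar organoids.

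Of the other 119 biogenesis genes, 20 were higher in tumoroids and 4 lower (Mphosph6, C1d, Ttf1 and Mphosph10), with a median of 0.20. Over all genes tested, 10.8% were called higher and 8.77% lower, with a median of -0.00164. Nol6 (1.01) and Wdr46 (0.93) of the small-subunit pathway rose, as did the exosome subunit Exosc2 (0.91). Ttf1 (-0.70), which ends transcription by RNA polymerase I, and Mphosph6 (-1.19) fell. Of 79 cytosolic ribosomal protein genes, 25 were higher and 0 lower, with a median of 0.39. All 12 proliferation genes were higher, with a median of 1.56 and Plk1 at 2.36 and Aurkb at 1.98, and the proliferation score was 5.608 to 6.502 in the transplant tumoroids. The fibroblast list had 2 of 10 genes lower (Postn at -2.59 and Lum at -2.05) and summed to 603 to 11060 CPM, highest in AT2 tumoroid 3, which also had the highest Npm1 and Mybbp1a of the transplant tumoroids. Of the other marker lists, 1 endothelial and 1 immune marker were higher, 1 ciliated cell marker was lower and 0 AT2, club or basal markers were called. Myc was at 51.5 to 136 CPM. The part of these in the members' levels was not tested.

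Among tumoroids, the 3 of mixed BASC and the 3 of AT2 origin were compared next. Nop58 was at 61.8, 68.7 and 69.5 CPM in mixed BASC and at 63.1, 63.9 and 66.8 CPM in AT2 tumoroids. The values interleaved, and the log2 difference was 0.03 ± 0.162 (SE; edgeR, adjusted p = 1). Gar1 was at 17.4, 19.2 and 17.7 CPM in mixed BASC and at 15.5, 16.3 and 19.5 CPM in AT2 tumoroids. In the organoids of these origins it was at 17.4 and 17.3 CPM in mixed BASC and at 6.680 and 6.263 CPM in AT2 cultures. Polr1c, at 90.3, 118 and 150 CPM in mixed BASC and 143, 166 and 77.0 CPM in AT2 tumoroids, overlapped widely. The log2 differences were -0.16 for Fbl, -0.13 for Npm1, -0.11 for Dkc1, 0.08 for Ncl, 0.07 for Polr1b and 0.01 for Polr1a. edgeR called 0 of 15470 genes (0% in either direction), 144 had an unadjusted p under 0.05 and DESeq2 called 7 genes higher. The members' median was -0.05 against -0.04 over all genes, with 15 above 0, 23 below and 0 at an unadjusted p under 0.05. The SE of the log2 difference was 0.34 for Polr1c and 0.162 for Nop58. An SE is no detection limit, and with 3 samples a group differences well above these could also have been missed.

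The change of the origin effect from organoid to tumoroid was tested as an interaction over mixed BASC and AT2 samples (5 of each). A negative value means that the excess of mixed BASC over AT2 was smaller in tumoroids. Of 17592 genes, edgeR called 0.102% higher and 0.125% lower, and 0 members, of which 9 had an unadjusted p under 0.05. The members' median was -0.56 against -0.06 over all genes, and 34 of 38 were below 0. Nop58 was at -1.001 ± 0.217 (SE; edgeR, adjusted p = 0.0714) and Gar1 at -1.33 ± 0.302 (edgeR, adjusted p = 0.0793), and both missed the threshold. DESeq2 called 7 members lower (Nop58, Fbl, Gar1, Nhp2, Wdr43, Ebna1bp2 and Mrto4) and 0 higher, where it called 7.09% of all genes lower and 4.41% higher, with an adjusted p of 1.23e-05 for Nop58 and 5.96e-07 for Gar1. With any 1 sample left out, edgeR called 0 members. With the GC correction the median over all genes moved to -0.195 and that of the members to -0.683. The stages were read on different platforms, so platform and stage cannot be told apart.

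The bronchiolar BASC tumoroid stood alone and was set against the range of the 6 alveolar tumoroids, with no test. Of the members, 14 lay above that range, where 20.5% of all genes did, 3 lay below, where 21.4% did, and 21 lay within, with a median log2 difference of 0.165. From TPM, 7 members lay above the range, and the share of all genes above it was not computed on that scale. The member score exceeded the mean of the alveolar tumoroids by 0.0668 from TPM and by 0.0548 with the GC correction, against 0.167 from CPM. Pno1, a late factor of the small subunit, was at 39.5 CPM against 17.8 to 27.6 CPM, Rrs1, a large-subunit factor, at 45.5 CPM against 21.7 to 36.2 CPM, and Ltv1, an export factor of the small subunit, at 29.2 CPM against 14.05 to 22.93 CPM. Gar1 was at 25.8 CPM against 15.5 to 19.5 CPM, and Nop58 at 75.2 CPM against 61.8 to 69.5 CPM. The members below the range were Polr1c at 58.2 CPM against 77.0 to 166 CPM, Polr1a at 44.4 CPM against 49.9 to 75.4 CPM and Pes1 at 110 CPM against 117 to 146 CPM. In Polr1c the bronchiolar sample was thus lowest among tumoroids, as the bronchiolar culture was low among organoids. Fbl, at 84.1 CPM, was above the range, and Ncl, Npm1, Dkc1 and Polr1b were within it.

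The autochthonous tumoroid, also single, had 2 members above the range of the alveolar tumoroids, where 15.8% of all genes lay above, 19 below, where 13.2% lay below, and 17 within, with a median difference of -0.25. Nop58 was at 44.1 CPM, Gar1 at 8.411 CPM, Rrp1b at 14.2 CPM and Fbl at 58.2 CPM, all below the range. Heatr1, a small-subunit factor that also promotes transcription by RNA polymerase I, was at 102.9 CPM against 26.0 to 65.7 CPM, and Nat10, an RNA acetyltransferase, at 38.8 CPM against 24.8 to 34.9 CPM. Its Nop58 and Gar1 were nearer to the alveolar organoids than those of any transplant tumoroid.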

How the data were processed

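RNA of 18 samples was sequenced, 10 organoid cultures on HiSeq and 8 tumoroids on DNBSEQ. Per the submitters' processing notes, the authors used Trimmomatic 0.39, STAR 2.6.1d and RSEM 1.3.2 on GRCm38, and whether counting used strand is not given in the sources used here. Expected counts (estimated by RSEM) and TPM were taken from the deposited tables of 46603 genes, of which 46091 matched a GENCODE symbol. Expected counts were rounded, filtered by filterByExpr, scaled by TMM and fitted by the quasi-likelihood test of edgeR 4.0.16 in R 4.3.3. A prior count of 2 entered log2 CPM, and the fit kept edgeR's default. P-values were Benjamini-Hochberg adjusted over all genes tested. The TPM, which the authors computed per transcript length, served only to order members by level and in 1 alternative. Scripts were tested on simulated data.

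The members and gene lists were chosen with earlier results of these data known. The members named throughout were Nop58, Ncl, Npm1, Fbl, Dkc1, Polr1a and Polr1b and, per comparison, up to 4 called members with the largest fold change in each direction (for the bronchiolar tumoroid, outside the range of the alveolar ones), and of other lists the 2 largest called changes, some of which are not reported here. Further members were named after their values had been seen, where a count was small or to complete a role. Alternatives were DESeq2 1.42.0, other size factors, filters and prior count, a GC correction, covariates, subsets of cultures and leaving out each sample. Tables and figures were made with Python 3.11.15 and matplotlib 3.10.9. The candidate genes Riok2 and Exosc6 were not analysed here.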

Additional observations from a re-analysis of the deposited data

Results flagged for a closer look

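Among 85 groups of 4 to 7 samples, many of which share samples, 5 held a value standing apart from the rest of its group by Dixon's ratio. The ratio is the gap to the nearest value over the range of the group. For unselected values chance flags about 1 in 20 groups, but only the member score and the named members were examined. In 4 of them the alveolar culture was the lowest of the 4 BASC organoids: Gar1 (ratio 0.871) was at 6.64 CPM against 17.3 CPM for the nearest culture, Polr1b (0.898) at 10.8 against 18.9 CPM, Rrp1b (0.855) at 13.6 against 30.8 CPM and Rrs1 (0.886) at 18.5 against 29.5 CPM. These 4 values come from 1 library. Gar1 and Rrp1b were named for their large differences between airway and alveolar organoids, where that library was in the low group. The chance rate therefore does not apply to them. In the airway organoids, Dkc1 (0.85) was highest in the bronchiolar BASC culture, at 29.4 CPM against 20.2 CPM for the nearest.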

How the results depend on the processing

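Of 805 recomputed single-gene values, 734 kept direction and side of the threshold, 18 lost and 21 gained a call, and 32 changed sign. Of 333 summary values, 312 stayed within a tolerance around the main value, which allowed a moderate change. For tumoroids against organoids, 8 member calls with the GC correction against 12 without it were within that tolerance. A median or score was within it when it moved by less than the spread between samples. No cause was tested. Between viruses population was the block of the main comparison, and without it edgeR called 0 genes, with 53 at an unadjusted p under 0.05. Mixed BASC alone against AT2 organoids gave 6 members higher and 1 lower, and leaving out 1 culture gave 0 to 20 higher and 0 to 1 lower. For airway against alveolar organoids the GC correction gave a median of 0.395. Tracheal against AT2 cultures gave 26 members higher and 2 lower (Polr1c and Heatr1), where 32.7% of all genes were called higher and 32.1% lower. For tumoroids against organoids the block for population gave 5 members. The samples chosen after seeing the data gave medians of 0.735, 0.822 with the GC correction and, for mixed and bronchiolar BASC, 0.15 with 0 members called. There Nop58 was -0.195 and Ncl -0.19, and Ncl was also -0.0326 without a filter, -0.00256 with the autochthonous tumoroid and -0.0027 with tumoroids of 1 title number summed, and ran from -0.0622 to 0.143 leaving out 1 sample. Between tumoroid origins the GC correction gave Nop58 -0.0126 and Polr1a -0.0292, and summing gave Dkc1 0.022. Leaving out 1 tumoroid gave a median of -0.118 to 0.0569, Nop58 -0.00423 to 0.0905, Ncl -0.0084 to 0.276, Npm1 -0.317 to 0.114, Dkc1 -0.281 to 0.0893 and Polr1a -0.123 to 0.219. Between viruses, Ncl ran from -0.0466 to 0.119, Npm1 from -0.0171 to 0.18, Dkc1 from -0.00934 to 0.0414 and Polr1b from -0.00179 to 0.0312. For the interaction DESeq2 called 7 members lower, and Polr1a ran from -0.267 to 0.0776. The member score of mixed BASC minus alveolar organoids was 0.446 with upper-quartile factors, 0.568 from TPM and 0.441 with the GC correction, that of airway minus alveolar organoids 0.566 from TPM, that of alveolar tumoroids minus alveolar organoids 0.812 with the GC correction, and that of the bronchiolar minus the alveolar tumoroids 0.0668 from TPM and 0.0548 with the GC correction. From TPM, 7 members of the bronchiolar tumoroid were above the alveolar range, and the share of all genes was not computed on that scale. Tumoroid libraries were shallower than organoid libraries, which limits low members such as Dimt1 and Rrp12 most.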
